A study of Mus musculus with 16 samples.

Results

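The 8 genes described here make or assemble the enzymes with which colonic epithelium releases reactive oxygen and nitric oxide. They were Nox1, Noxo1, Noxa1, Cyba, Duox1, Duox2, Duoxa2 and Nos2, taken by gene symbol, and all 8 were found among the 22396 gene symbols of the deposited tables. RNA was sequenced from EpCAM+ cells, that is cells sorted by flow cytometry for an epithelial surface protein, from the distal colon of 16 mice. Control mice carried 2 floxed alleles of the TNFR2 gene (Tnfr2-f/f), and mice labelled knockout carried in addition a Cre recombinase driven by the Vil1 promoter, which is active in intestinal epithelium (Vil1::Cre;Tnfr2-f/f). Water was given to 4 controls and 5 mice labelled knockout, and dextran sulfate sodium (DSS), which injures the colonic epithelium, to 3 controls and 4 mice labelled knockout. By the sample labels DSS was given at 3% for 6 days and every mouse was dissected on day 12. By the study's methods, injured regions of DSS colons were picked out under a stereomicroscope and kept apart from unaffected tissue. Values after DSS are therefore of injured regions, and those in water of uninjured colon. The methods of the study give another DSS dose and an earlier day for the uninjured mice. The study calls the sorted mice adult, and its flow cytometry methods give an age of 8 weeks.

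NOX1 and DUOX2 are the best known oxidases of colonic epithelium, membrane enzymes that pass electrons to oxygen at the luminal surface. NOX1 needs p22phox, the product of Cyba, as a membrane partner, the organizer NOXO1 and the activator NOXA1, and the small GTPase Rac1. DUOX2 and its relative DUOX1 release hydrogen peroxide directly at the cell surface, and each leaves the endoplasmic reticulum only with a maturation factor, DUOXA2 for DUOX2 and DUOXA1 for DUOX1. NOS2 is the inducible nitric oxide synthase, which makes nitric oxide from arginine. Nox1, Duox2 and Nos2 are known as genes that epithelium turns on under microbial and cytokine signals.

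Positions are on the mouse build GRCm38 (GENCODE M21). Nox1 lies on the minus strand at chrX:134086421-134221956, Noxa1 on the minus strand at chr2:25085667-25095149, Cyba on the minus strand at chr8:122424776-122432930, Noxo1 on the plus strand at chr17:24696234-24700529 and Nos2 on the plus strand at chr11:78920787-78960254. The DUOX genes form a cluster on chromosome 2. Duox2 (minus strand, chr2:122279247-122298449) and Duoxa2 (plus strand, chr2:122298900-122302885) stand head to head with 450 bases between their gene models. Duoxa1 (minus strand, chr2:122302191-122313730) and Duox1 (plus strand, chr2:122315672-122347972) form the neighbouring head-to-head pair with a gap of 1941 bases. The gene models of Duoxa1 and Duoxa2 share 695 bases on opposite strands, and whether the quantification used the strand of the reads is not given in the sources used here.

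The sequences that precede the starts of Duoxa2 and Nox1 are shown because Duoxa2 shares its upstream region with Duox2 and because Nox1 had the largest difference between treatments among the 8 genes. RefSeq windows (GRCm38.p6) were found for 7 of the 8 genes. Each stretch holds the 250 bases before the start, written 5′ to 3′ on the strand of the gene. Capitals mark TATAAA, the letters of a TATA box, in the Duoxa2 window (plus strand, chr2:122298650-122298899) and TTTATGG, letters bound by CDX homeobox factors, in the Nox1 window (minus strand, chrX:134111855-134112104).
Duoxa2: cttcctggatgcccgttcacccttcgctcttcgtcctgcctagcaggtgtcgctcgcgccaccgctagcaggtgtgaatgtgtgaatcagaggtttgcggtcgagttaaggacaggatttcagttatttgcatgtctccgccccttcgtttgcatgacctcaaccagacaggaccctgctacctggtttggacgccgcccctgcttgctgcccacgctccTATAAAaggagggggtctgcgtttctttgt
Nox1: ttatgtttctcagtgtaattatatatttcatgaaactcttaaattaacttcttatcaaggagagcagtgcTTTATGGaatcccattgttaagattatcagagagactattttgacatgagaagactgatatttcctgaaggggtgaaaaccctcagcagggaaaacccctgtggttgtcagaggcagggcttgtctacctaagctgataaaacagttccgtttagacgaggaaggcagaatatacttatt
TATAAA on either strand was found in 12.4% of all 32851 such windows and in 1 of the 7, Duoxa2, where it begins 30 bases before the start. TTTATGG on either strand was found in 2.43% of all windows and in 1 of the 7, Nox1, 180 bases before the start. The STAT letters TTCNNNGAA (7.02% of all windows) were in none of the 7, which says only that these letters are not in these stretches. AGATAA, letters of a GATA site, was in the windows of Noxa1 and Cyba and in 9.99% of all. The Nox1 window held 38.0% G and C, less than most windows (median 52.4%), and the Noxo1 window held 80.0%, more than 98.8% of windows.

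The tables list 1 transcript for each of the 8 genes, and expression is given as TPM, a share of the transcripts of a library that is already divided by transcript length. The listed transcript is the only one annotated for Duoxa2 and Duox1, so that their values stand for the gene. For the other genes, isoforms outside the tables share sequence with the listed one. Of the stretches of 31 bases in the listed transcript, 28.5% were absent from the gene's unlisted transcripts for Nox1 and 40.5% for Noxo1. The share was 4.41% for Noxa1, 3.08% for Cyba, 2.97% for Nos2 and 0.525% for Duox2, whose values therefore rest on how the authors' software divided reads between isoforms. The listed Duox1 transcript shares 13.4% of its stretches with the listed Duox2 transcript.

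The mice were compared in 2 tables, 1 for each treatment, which were scaled separately, so that no test was run between DSS and water. The listed TPM of a mouse added up to between 487469 and 861109, and the tables give no read counts per mouse. For levels across treatments all 16 mice were rescaled together by median-of-ratios factors, which were 0.882 to 0.916 in water and 1.10 to 1.21 after DSS. The water mice of cage a were male and those of cage b female, all DSS mice were female and lived in cages c and d, and no cage held both treatments, so treatment cannot be told apart from cage. The targeted gene Tnfrsf1b, which encodes TNFR2, was not lower in the mice labelled knockout beyond the spread between mice. It was at 11.8 ± 2.30 TPM (SD, n = 5) against 13.9 ± 2.06 (n = 4) in water and at 18.4 ± 6.02 (n = 4) against 16.5 ± 4.95 (n = 3) after DSS, and the exact two-sided permutation p was 0.198 and 0.629. By the study's methods the floxed part is the second exon, and TPM of the whole transcript does not measure that exon alone, so this level does not check the deletion. The study reports reduced TNFR2 by flow cytometry, and its loss by qPCR, in EpCAM+ cells of its epithelial knockout mice. Here the mice are called by their label.

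Epithelial markers were high in every mouse, and summed macrophage, B cell and T cell markers were lower after DSS. Summed over 8 epithelial genes, rescaled TPM was 6918 to 9562 in water and 5336 to 8376 after DSS. In controls each of these 8 overlapped between treatments. Among mice labelled knockout 2 were higher in every DSS mouse (Epcam, Cdh1), against 17.3% of all genes. There 4 were lower (Krt8, Krt19, Vil1, Lgals4), against 18.1%. The sum of 8 macrophage markers was 1274 to 2832 in water and 15.6 to 51.1 after DSS, with Itgam under 0.1 in all DSS controls. All 8 were lower in every DSS mouse than in every water mouse of the same genotype. Of all genes 14.2% were so in controls and 18.1% in mice labelled knockout. The sum of 5 B and plasma cell markers was 541 to 16041 in water and 7.48 to 399 after DSS, that of 6 T cell markers 8.15 to 32.6 and 0.0829 to 2.31, and that of 6 neutrophil markers 37.2 to 96.0 and 75.0 to 1709. Of the neutrophil markers averaging 1 rescaled TPM or more, only S100a8 and S100a9 were higher in every DSS mouse of both genotypes. These were 2 of 5 in controls and 2 of 4 in mice labelled knockout, against 10.5% and 17.3% of all genes. The others overlapped the water mice of their genotype. Stromal and endothelial markers (7 of 8 listed) summed to 225 to 782 and 91.8 to 409. What these cells add to the levels below was not tested, and in sorted bulk RNA fewer cells of a kind and less RNA per cell cannot be told apart.

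Nox1, the catalytic subunit, was higher after DSS than in water, with a ratio of mean rescaled TPM of 4.41 in controls and 3.95 in mice labelled knockout. In controls given water its rescaled TPM was 20.2, 16.9, 11.1 and 16.7, and in controls after DSS it was 49.7, 111 and 53.8. In mice labelled knockout it was 15.4, 32.0, 24.9, 19.3 and 26.3 in water and 85.2, 85.9, 89.4 and 112 after DSS. No DSS mouse of either genotype overlapped the water mice, and the lowest DSS value was above the highest water value of the whole series. The mean was 16.2 ± 3.77 (SD, n = 4) in water controls, 23.6 ± 6.41 (n = 5) in water mice labelled knockout, 71.5 ± 34.3 (n = 3) in DSS controls and 93.1 ± 12.6 (n = 4) in DSS mice labelled knockout. On the log2(rescaled TPM + 1) scale DSS minus water was 2.00 (SE 0.40) in controls and 1.97 (SE 0.20) in mice labelled knockout. Ranked within a mouse among genes above 0 in any mouse, Nox1 stood at the 75.3rd to 89.4th percentile in water. After DSS it stood at the 93.9th to 97.6th. Its difference was the 40th largest of 11292 genes in controls and the 65th largest of 11194 in mice labelled knockout.

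The partners of NOX1 did not follow it in proportion. Noxo1, the organizer, had rescaled TPM of 5.41 to 7.04 in water controls and 6.06 to 8.46 in DSS controls, which overlapped. Mice labelled knockout had 3.83 to 10.3 in water and 5.59 to 6.97 after DSS. DSS minus water for Noxo1 was 0.25 (SE 0.14) in controls and -0.21 (SE 0.22) in mice labelled knockout, and the second difference was above 0 under each of the other 3 scalings. Noxa1, the activator, had rescaled TPM of 27.2, 27.5, 26.0 and 29.7 in water controls and 42.0, 63.2 and 66.9 in DSS controls. These values of Noxa1 did not overlap, and its log2 difference in controls was 1.00 (SE 0.21). Among mice labelled knockout Noxa1 was 18.3 to 47.2 in water and 33.6 to 59.0 after DSS, with overlap and a log2 difference of 0.60 (SE 0.28). With female mice alone, a choice made after the data were seen, the difference of Noxa1 was 0.91 in mice labelled knockout and 0.95 in controls. Every DSS mouse labelled knockout was then above the 3 female water mice of that label. Without the DSS mice of cage c, another such choice, the difference was 0.61 in mice labelled knockout, with overlap, and 0.88 in controls.

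Cyba, which encodes the membrane partner p22phox shared by the NOX1 and phagocyte oxidases, was lower after DSS on the rescaled scale. Its rescaled TPM was 125, 95.7, 91.8 and 122 in water controls and 58.6, 66.7 and 103 in DSS controls, where the DSS mouse at 103 overlapped the water mice. Its values in mice labelled knockout were 117, 155, 142, 170 and 108 in water and 91.9, 59.2, 53.3 and 74.1 after DSS, with no overlap. The log2 difference was -0.54 (SE 0.27) in controls and -0.99 (SE 0.21) in mice labelled knockout. Both DSS mice of cage c, at 103 and 91.9, were above the 5 DSS mice of cage d, at 53.3 to 74.1. Without the DSS mice of cage c, a choice made after the data were seen, the difference was -0.78 in controls and -1.13 in mice labelled knockout. As background, macrophages express Cyba strongly. The summed level of the phagocyte oxidase genes Cybb, Ncf1, Ncf4 and Rac2 was 37.1 to 88.2 in water and 2.97 to 13.4 after DSS. The part of such cells in the Cyba level was not tested.

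**Figure D1:**
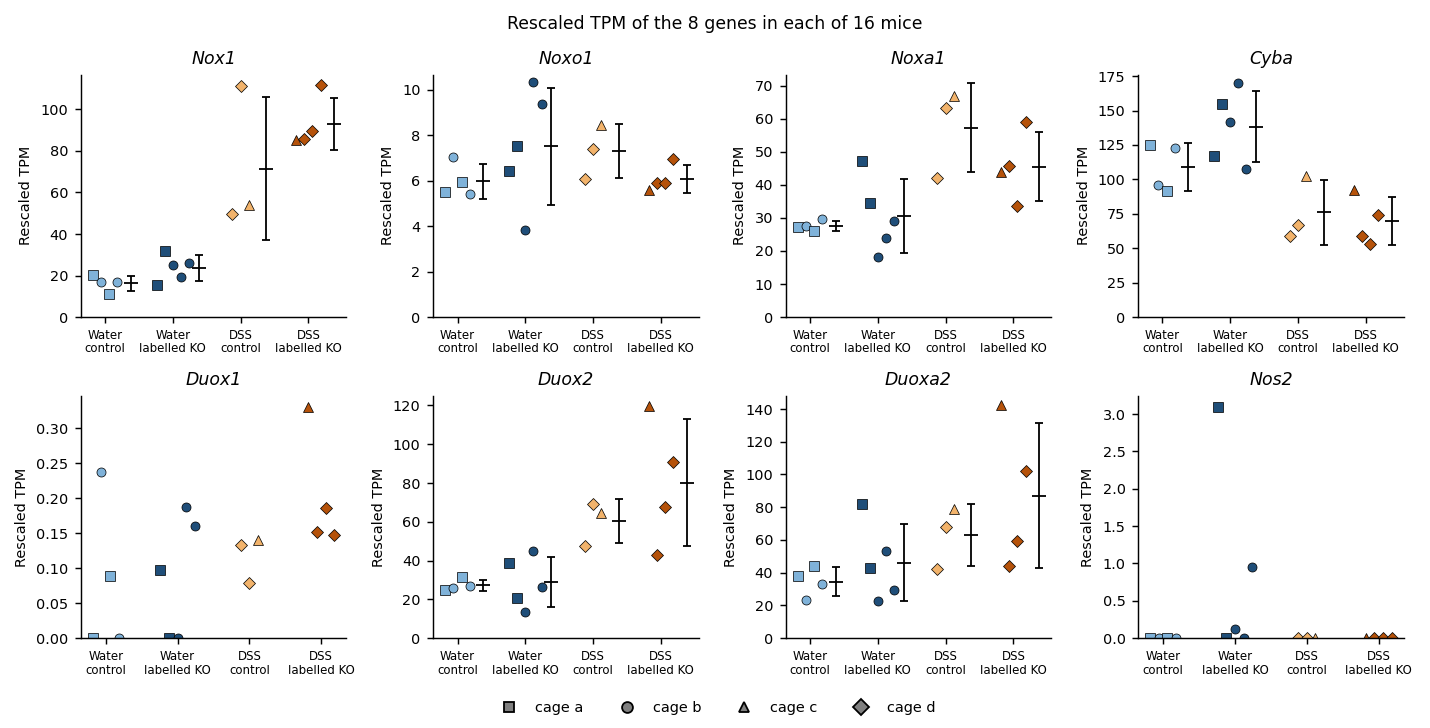
Rescaled TPM (vertical axis) of the 8 genes in each of the 16 mice, by group, with the cage of each mouse as the symbol; bars are the mean and SD of a group and are left out for Duox1 and Nos2. Nox1 is at 11.1 to 32.0 in water and 49.7 to 112 after DSS, Cyba lies lower after DSS, and Nos2 is above 0 in 3 mice labelled knockout given water.

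Duox2 and Duoxa2, the peroxide-producing oxidase and its maturation factor, were higher after DSS, most clearly Duox2 in controls. Duox2 had rescaled TPM of 25.0, 25.7, 31.3 and 26.8 in water controls and 47.5, 69.0 and 64.6 in DSS controls, without overlap. Mice labelled knockout ranged more widely, 38.6, 20.8, 13.5, 44.8 and 26.3 in water and 120, 42.9, 67.6 and 90.8 after DSS, where the DSS mouse at 42.9 lay below the water mouse at 44.8. The log2 difference of Duox2 was 1.11 (SE 0.18) in controls and 1.47 (SE 0.43) in mice labelled knockout. Duoxa2 had rescaled TPM of 37.8, 23.5, 44.3 and 32.8 in water controls and 42.1, 67.7 and 79.1 in DSS controls. Mice labelled knockout had 82.2, 43.1, 22.8, 53.4 and 29.1 in water and 142, 44.0, 59.6 and 102 after DSS. The groups of Duoxa2 overlapped in both genotypes, with log2 differences of 0.83 (SE 0.33) and 0.90 (SE 0.49). With female mice alone, also a choice made after the data were seen, the differences of Duoxa2 were 1.11 in controls and 1.23 in mice labelled knockout. Every DSS control was then above both female water controls, and mice labelled knockout still overlapped. Without the DSS mice of cage c the differences were smaller, 0.65 in controls and 0.62 in mice labelled knockout, with overlap in both.

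Duox1 was close to absent. Its deposited TPM was 0 to 0.212 in water and 0.0874 to 0.383 after DSS, with 4 of the 9 water mice listed at 0. The levels are too low to say whether treatments differed. Duox2 TPM exceeded Duox1 TPM by far in every mouse, the ratio of Duox1 to Duox2 being at most 0.00925. Duoxa1, the maturation factor of DUOX1, was listed at 0 in every water mouse, every DSS control and 3 of the 4 DSS mice labelled knockout. The fourth had 0.501 deposited TPM of Duoxa1.

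Nos2 was listed at 0 in 13 of the 16 mice, including every DSS mouse. The exceptions were 3 mice labelled knockout given water, at 2.82, 0.109 and 0.857 deposited TPM. The difference from water controls had an exact two-sided permutation p of 0.286 (4 controls against 5 mice). The listed transcript (chr11:78925203-78959752) is 3429 bases long, and 97.0% of its stretches of 31 bases also lie in a longer transcript of Nos2 of 4192 bases (chr11:78920787-78960254), which the tables used here do not list. Rac1, a gene every cell uses, was likewise listed near 0 in controls, with a mean of 0.0296 rescaled TPM in water and 0.0290 after DSS. Among mice labelled knockout Rac1 was under 0.1 in every water mouse but not in every DSS mouse. A value of 0 therefore speaks only of the listed isoform. The constitutive synthases Nos1 and Nos3 both stayed under the minimum of a mean of 1 TPM.

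Counted over the genes that passed the minimum of a mean of 1 rescaled TPM, 6 of the 8 genes could be compared between treatments, and each of the 6 had a mean above that minimum in all 4 groups. In controls every DSS mouse was above every water mouse for 3 of the 6 (Nox1, Noxa1, Duox2), against 10.5% of all 11292 genes, and below for 0 of the 6, against 14.2%. In mice labelled knockout 1 of the 6 was above (Nox1), against 17.3% of 11194 genes, and 1 was below (Cyba), against 18.1%. The share in mice labelled knockout was thus near that of all genes. Over all genes the median DSS minus water was 0.02 in controls and 0.00 in mice labelled knockout on this scale and 0.32 and 0.30 in TPM as deposited. In controls Nox1, Noxa1, Duox2 and Duoxa2 were higher after DSS and Cyba lower under each of the 4 scalings tried. The same directions held in mice labelled knockout.

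**Figure D2:**
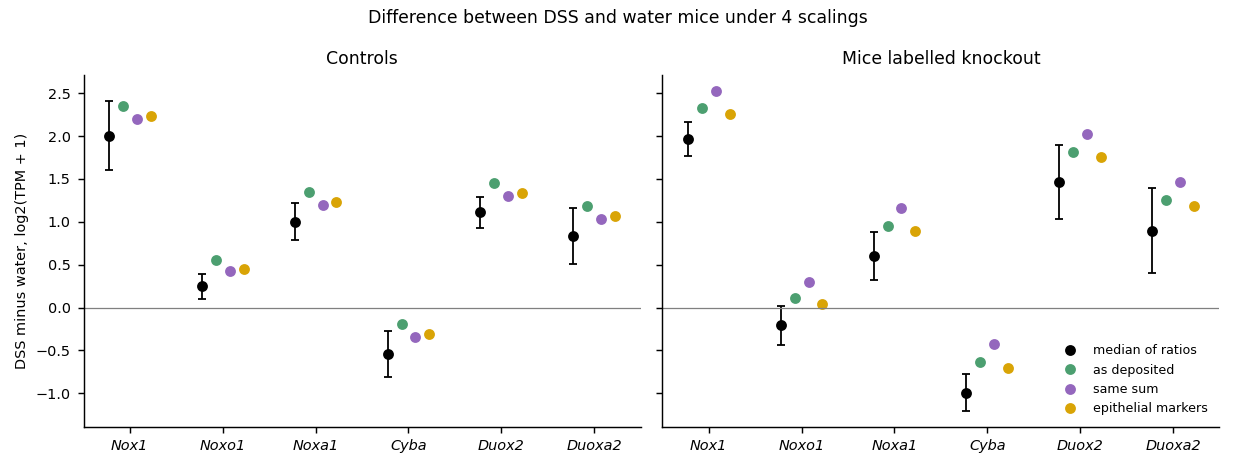
DSS minus water in log2(TPM + 1) (vertical axis) for 6 genes in controls and in mice labelled knockout; colours are 4 ways of scaling the mice and bars are standard errors of the median-of-ratios values. Nox1 differs by 2.00 and 1.97, Cyba lies below 0 under every scaling, and Noxo1 in mice labelled knockout is below 0 under median of ratios and above 0 under the other 3.

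Ratios between genes of the same mouse do not depend on how mice are scaled. The TPM ratio of Cyba to Nox1, each by its listed transcript, was 4.10 to 8.83 in the 9 water mice. In the 7 DSS mice it was 0.597 to 1.91, with no overlap. The part of macrophages and other cells in the Cyba level was not tested. The ratio of Noxo1 to Nox1 was 0.154 to 0.536 in water. After DSS it was 0.0624 to 0.157, and only the DSS control of cage c reached the lowest water value. For Noxa1 the ratio was 0.733 to 3.07 in water and 0.376 to 1.24 after DSS, with overlap. Among DSS mice labelled knockout the Noxo1 to Nox1 ratio was nearly the same in all 4 mice, 0.0656 ± 0.00253 (SD, n = 4). In DSS controls it was 0.115 ± 0.0457 (n = 3). DSS control 2, at 0.0665, lay within the 0.0624 to 0.0685 of the mice labelled knockout, and the genotypes were not tested on this ratio.

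The ratio of Duoxa2 to Duox2 lay near 1 after DSS, 0.883 to 1.22, and spread from 0.913 to 2.13 in water. In the water mice it was 1.42 to 2.13 in cage a, the males, and 0.913 to 1.69 in cage b, the females. Both DSS mice of cage c, at 1.19 and 1.22, were above the DSS mice of cage d, at 0.883 to 1.13. These are values of single cages and were not tested.

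**Figure D3:**
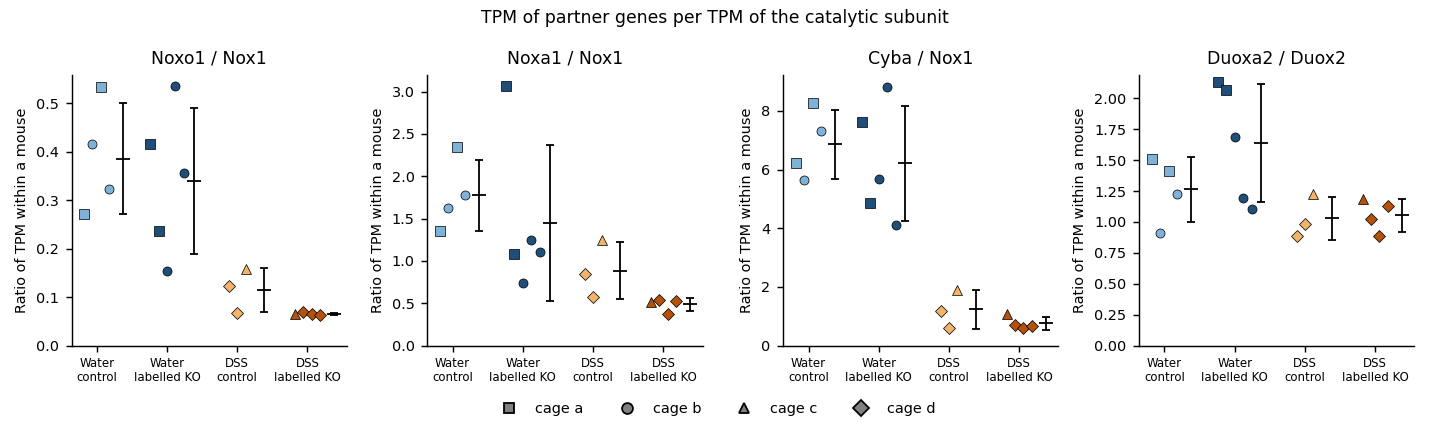
Ratio of TPM within a mouse (vertical axis) for Noxo1, Noxa1 and Cyba per Nox1 and for Duoxa2 per Duox2, with the cage as the symbol and bars for the mean and SD of a group. Cyba per Nox1 is at 4.10 to 8.83 in water and 0.597 to 1.91 after DSS, and Duoxa2 per Duox2 is highest in water mice of cage a.

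Duox2 and Duoxa2 went together from mouse to mouse. After each mouse's deviation from its group mean was taken, the gene most like Duox2 among 6280 others was Duoxa2 (Pearson r = 0.85 over 16 mice), followed by Alpk1 (r = 0.84) and Lrrk1 (r = 0.80). Alpk1 encodes a kinase that senses a bacterial sugar, and Lrrk1 a leucine-rich repeat kinase. The r of Duox2 with Duoxa2 was 0.77 among the water mice and 0.96 among the DSS mice. Noxo1 was 192nd in that order (r = 0.56), Noxa1 576th (r = 0.43) and Nox1 4858th (r = -0.22). The r of Duox2 with Nox1 was of opposite sign in the treatments, -0.65 among the water mice and 0.31 among the DSS mice, so the pooled value describes neither. With Noxo1 the r of Duox2 was 0.70 in water and 0.27 after DSS, and with Noxa1 0.48 and 0.36. For Nox1 the leading genes were Cox15, a heme-handling enzyme of mitochondria (r = 0.89), Sf3b6, a spliceosome subunit (r = 0.87), and Cdc26, a subunit of the anaphase-promoting complex (r = 0.86). Its own partners ranked low, Cyba 2626th (r = 0.11), Noxa1 2878th (r = 0.07) and Noxo1 3015th (r = 0.04). Here too the treatments differed in sign, with r in water and after DSS of 0.37 and -0.11 for Cyba, -0.23 and 0.48 for Noxa1 and -0.05 and 0.33 for Noxo1. Nos2 was under the minimum of 5 rescaled TPM for this comparison. These correlations share the cages and the scaling of the mice and are given as a description. The leading genes have the highest r of 6280, and picking the highest alone raises r.

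**Figure D4:**
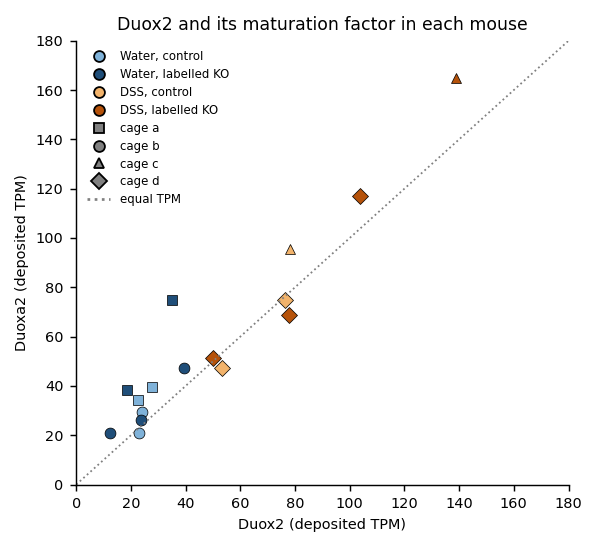
Deposited TPM of Duox2 (horizontal axis) and Duoxa2 (vertical axis) in each mouse; colour is the group, symbol the cage and the dotted line equal TPM. The mice lie near or above the line, from 12.4 and 20.9 TPM in the lowest water mouse to 139 and 165 in the highest DSS mouse.

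The spread between mice differed among the genes. The SD of log2(rescaled TPM + 1) of Duoxa2 among DSS mice labelled knockout was 0.75, larger than in 92.4% of genes of that group, and that of Duox2 was 0.62, larger than in 89.6%. In water controls Noxa1 was among the steadiest genes, its SD of 0.08 being larger than in 4.21% of genes. Nox1 had an SD of 0.63 in DSS controls, larger than in 82.3% of genes, with 1 mouse at 111 and the others at 49.7 and 53.8. In DSS mice labelled knockout its SD was 0.18.

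The comparison of genotypes asked whether the mice labelled knockout differed within a treatment. No member passed the test. After DSS limma called 1 of 10899 genes (0.00918%, 289 at an unadjusted p under 0.05), and of the 8 genes 6 were tested and 0 called, each with an adjusted p of 0.9997. Nox1 had the largest difference, a log2 fold change of 0.48 (SE 0.26) for mice labelled knockout minus controls, followed by Duoxa2 at 0.38 (SE 0.42) and Duox2 at 0.34 (SE 0.33). Noxa1 was at -0.31 (SE 0.24), Noxo1 at -0.22 (SE 0.17) and Cyba at -0.10 (SE 0.27). Single mice weighed on these values. The Nox1 difference was 0.81 without DSS control 2, the mouse at 111 rescaled TPM (limma unadjusted p = 0.00142, adjusted p = 0.830), and 0.25 without DSS control 1. In deposited TPM Nox1 was 107 ± 13.7 (n = 4) against 81.2 ± 36.2 (n = 3), and the exact two-sided permutation p was 0.200, where the smallest this design allows is 0.0286. Within cages, the Nox1 difference was 0.60 in cage c, with 1 mouse of each genotype, and 0.40 in cage d. Those of Duox2 were 0.82 and 0.21, and those of Duoxa2 0.78 and 0.32.

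In water limma called 1 of 11046 genes by genotype (0.00905%, 583 at an unadjusted p under 0.05), and again 0 of the 6 tested members. Nox1 was again highest, with a log2 fold change of 0.50 (SE 0.23, limma adjusted p = 0.865). Cyba followed at 0.34 (SE 0.16, limma adjusted p = 0.865). Deposited Nox1 TPM was 21.2 ± 5.68 (n = 5) in mice labelled knockout against 14.6 ± 3.49 (n = 4) in controls, with 3 of the 5 above every control and an exact two-sided permutation p of 0.0952. For Cyba these values were 124 ± 22.2 against 97.5 ± 16.3, also with 3 of the 5 above every control and an exact two-sided permutation p of 0.0952 (4 against 5 mice). The smallest p that 4 against 5 mice allow is 0.00794. The Nox1 difference was 0.54 in cage a and 0.45 in cage b, and that of Cyba 0.33 and 0.35. Duoxa2 was at 0.31 (SE 0.35), Noxo1 at 0.23 (SE 0.23), Noxa1 at 0.08 (SE 0.24) and Duox2 at -0.03 (SE 0.31).

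The cages of the water mice crossed the genotypes and were compared in the same way. The split is at once one of cage and of sex, which cannot be told apart. By cage limma called 4 of 11046 genes (0.0362%, 754 at an unadjusted p under 0.05) and 0 of the 6 tested members. Duoxa2 had the largest difference, -0.71 (SE 0.28) for cage b minus cage a, with an unadjusted limma p of 0.0336 and an adjusted p of 0.704. Its deposited TPM was 34.3 to 74.9 in the 4 mice of cage a and 20.9 to 47.1 in the 5 mice of cage b. Noxa1 differed by -0.38 (SE 0.21) and Duox2, the neighbour of Duoxa2, by -0.14 (SE 0.32).

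**Figure D5:**
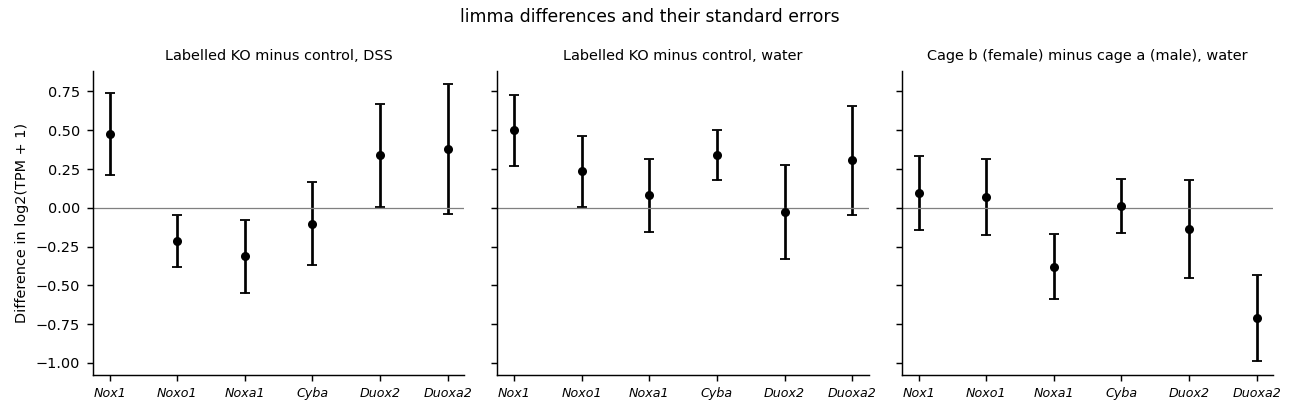
Differences in log2(TPM + 1) (vertical axis) of 6 genes from limma, for mice labelled knockout minus controls after DSS and in water, and for cage b minus cage a in water; bars are standard errors. Nox1 lies at 0.48 and 0.50 for genotype, Duoxa2 at -0.71 for cage, and no gene passed the adjusted threshold.

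Other genes of these pathways were taken from lists. No gene of any pathway list was called by genotype in either treatment or by cage. Of 11 genes of arginine and tetrahydrobiopterin supply, which feed nitric oxide synthases, 10 passed the minimum, and in controls 2 lay above in every DSS mouse (Arg1, Pts) and 0 below, against 10.5% of all genes above and 14.2% below. In mice labelled knockout 2 of 10 lay above (Slc7a1, Arg2), against 17.3% of all genes, a share near that of all genes. The arginase Arg2 had a mean of 1.35 ± 0.750 rescaled TPM in water and 5.02 ± 1.05 after DSS there. The median difference of the list was 0.15 in controls and 0.38 in mice labelled knockout. Of 19 genes that remove or use hydrogen peroxide 16 passed, with 2 above and 2 below in controls and 2 above and 5 below in mice labelled knockout. Both counts in controls and the count above in mice labelled knockout were thus near the shares of all genes, and the 5 of 16 below stood against 18.1%. The list's median was -0.31 and -0.11.

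Lpo, which encodes lactoperoxidase, an enzyme that uses hydrogen peroxide to make antimicrobial oxidants, lay above in both genotypes. It had 3.32 ± 0.931 rescaled TPM in water and 15.3 ± 2.21 after DSS in controls, and 4.09 ± 0.898 and 18.9 ± 2.36 in mice labelled knockout. The glutathione peroxidase Gpx4 and the peroxiredoxins Prdx4, Prdx5 and Prdx6 were among the 5 below in mice labelled knockout, with Sod1. Gpx4 was there at 76.6 ± 21.9 in water and 36.7 ± 6.83 after DSS. Peroxiredoxins did not move together, as Prdx3 lay above in mice labelled knockout and Prdx2 above in controls. In controls the 2 below were Sod3 and Gpx3. These 4 phagocyte oxidase genes (Cybb, Ncf1, Ncf4, Rac2) lay below in DSS controls and 3 of the 4 in DSS mice labelled knockout, against 14.2% and 18.1% of all genes, with medians of -2.34 and -2.51. Cybc1, a chaperone of the Cyba-containing complex, was the 1 gene of 5 further oxidase parts to pass the minimum and was lower after DSS in both genotypes, at 10.5 ± 1.24 against 14.6 ± 1.65 in controls. Of 6 surface colonocyte markers 3 and 4 lay below after DSS and 0 above, and of 6 crypt progenitor markers 2 lay above in each genotype and 1 (Ascl2) below in controls. Of all genes 14.2% lay below in controls and 18.1% in mice labelled knockout, and 10.5% and 17.3% above. What the balance of these cells adds to the levels of the 8 genes was not tested.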

How the data were processed

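RNA of sorted EpCAM+ distal colon cells from 16 mice was sequenced by the authors as stranded polyA libraries, and transcripts were quantified with kallisto and compared with sleuth. The submitters' processing notes name build mm10. The transcript release is not given in the sources used here. The authors deposited TPM per transcript and mouse in 2 tables, scaled separately, of 29373 lines each (385 repeated lines were dropped, leaving 28988 transcripts). The deposited tables also hold the authors' mean natural log of estimated counts, 7.18 for Nox1 after DSS and 4.79 in water, and their p-values, q-values and log2 ratios of genotype, which were not used. Depth per mouse is not given by TPM, so the counting error of single values is unknown, and the spreads given are those between mice.

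TPM was summed per gene symbol. Genotypes and water cages were compared within a table by limma 3.58.1 (R 4.3.3) on log2(TPM + 1) with a variance trend. Genes averaging 1 TPM or more entered, and a gene was called where its Benjamini-Hochberg p over all of them was under 0.05. The script was tested on simulated data. Single genes were compared by exact permutation of mice. Between treatments values were rescaled by median-of-ratios factors over 9936 genes above 0 in every mouse (numpy 2.4.6, pandas 2.3.3, scipy 1.17.1) and described without a test. Genes named are the 8 members, genes of lists of related enzymes and cell markers, and the 3 genes most like Nox1 and Duox2. The members and lists were chosen with earlier results of these data known. Some genes of these lists are not reported here.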

Additional observations from a re-analysis of the deposited data

Results flagged for a closer look

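Among DSS mice labelled knockout, 1 mouse stood apart from the other 3 for Nox1, with 127.791 deposited TPM against 98.8, 99.9 and 103 (gap over range 0.861 for 4 mice). It was 1 of 22 group and gene combinations tested in this way, and chance flags about 1 in 20. The same mouse had 104 TPM of Duox2 and 117 of Duoxa2, below the mouse of cage c at 139 and 165. Without it the Nox1 log2 fold change of genotype after DSS was 0.39, against 0.48 with it. Other mice moved that difference more, to 0.81 without DSS control 2 (limma adjusted p = 0.830) and to 0.25 without DSS control 1.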

How the results depend on the processing

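No member was called by genotype or by cage under any of the alternatives run (234 refits of single members, of which 17, each with a mouse left out, turned a direction). The genes called by genotype after DSS went from 1 to 0 with a pseudocount of 0.1, with all genes above 0 in a mouse and with the replicate number as a block, and were 0 to 3 with a mouse left out. In water they went from 1 to 0 with a pseudocount of 0.1, with a minimum mean of 5 TPM and with the replicate block, to 4 with all genes above 0 in a mouse, and were 1 to 2 with a mouse left out. The cage count was 3 to 7 with a mouse left out, against 4. Same-numbered mice did not deviate together (pairing r of -0.197 to -0.0253 after DSS and -0.0769 to 0.0932 in water), so the numbers were not taken as pairs.

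With a mouse left out, the genotype difference after DSS ran from 0.25 to 0.81 for Nox1, 0.11 to 0.60 for Duox2, 0.092 to 0.65 for Duoxa2, -0.34 to -0.080 for Noxo1, -0.53 to -0.15 for Noxa1 and -0.28 to 0.17 for Cyba. The lowest values of Duox2 and Duoxa2 were without the mouse labelled knockout 1, of cage c, and the highest without the mouse labelled knockout 2. In water it ran from 0.34 to 0.63 for Nox1, 0.26 to 0.43 for Cyba, 0.061 to 0.51 for Duoxa2, 0.12 to 0.41 for Noxo1, -0.093 to 0.23 for Noxa1 and -0.20 to 0.20 for Duox2. Duoxa2 was lowest without the mouse labelled knockout 1 and highest without the mouse labelled knockout 3, and Noxo1 was highest without that same mouse and lowest without the mouse labelled knockout 4. The cage difference ran from -0.88 to -0.47 for Duoxa2, -0.48 to -0.18 for Noxa1, -0.10 to 0.31 for Nox1, -0.035 to 0.26 for Noxo1, -0.070 to 0.10 for Cyba and -0.33 to 0.073 for Duox2. With a mouse left out, DSS minus water for Nox1 ran from 1.64 to 2.21 in controls and 1.83 to 2.09 in mice labelled knockout. In the same order Noxa1 ran from 0.88 to 1.21 and 0.44 to 0.77, and Noxo1 from 0.15 to 0.36 and -0.40 to -0.087. Cyba ran from -0.78 to -0.38 and -1.13 to -0.88. Duox2 ran from 1.005 to 1.27 and 1.24 to 1.73, and Duoxa2 from 0.65 to 1.095 and 0.62 to 1.17.

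The scaling moved the DSS against water differences, and the median of all genes moved with it (0.32 in controls as deposited). In mice labelled knockout that median was 0.30 as deposited, 0.48 with listed TPM brought to the same sum and 0.25 with epithelial markers. In controls TPM as deposited gave 0.56 for Noxo1, 1.35 for Noxa1, -0.19 for Cyba and 1.45 for Duox2, and scaling to epithelial markers gave 0.45 for Noxo1 and 1.34 for Duox2. In mice labelled knockout TPM as deposited gave 2.32 for Nox1 and -0.63 for Cyba, and bringing listed TPM to the same sum gave 2.53 for Nox1, 1.16 for Noxa1, -0.42 for Cyba, 2.03 for Duox2 (1.47 otherwise) and 1.46 for Duoxa2 (0.90 otherwise). Noxo1 there turned from -0.21 to 0.11, 0.29 and 0.045 under deposited TPM, the same sum and epithelial markers. Duox1, near 0, went to 0.44 and 0.79 with a pseudocount of 0.1. Depth per mouse is unknown, so low values such as Duox1 and Nos2 carry no counting interval.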
